A study of Homo sapiens with 18 samples.

Results

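The TCF/LEF transcription factors, the TLE corepressors that bind them and β-catenin were examined in PCGF6-KO human pluripotent stem cells (PSCs). The set held 9 of the 57133 genes in the count table, listed by gene symbol and chosen with earlier results of these data known. It comprised the 4 TCF/LEF genes LEF1, TCF7, TCF7L1 and TCF7L2, the 4 corepressor genes TLE1, TLE2, TLE3 and TLE4, and CTNNB1, which encodes β-catenin. All 9 passed the filter on low counts. RNA-seq had been performed on PGP1, an established human induced PSC line, in 3 groups of 2 libraries each. WT was the parental line. KO1 (clone 1) and KO2 (clone 2) were made from it with CRISPR-Cas9 aimed at the first exon of PCGF6, a Polycomb protein of the PRC1.6 complex, and each is the line grown from 1 edited clone. All 3 groups were kept in mTeSR1 medium on Matrigel, with no differentiation or WNT treatment in the labels.

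TCF/LEF proteins bind the same DNA motif and carry the transcriptional output of canonical WNT signaling. Without nuclear β-catenin they recruit TLE proteins of the Groucho family, which hold target genes silent through histone deacetylases, and β-catenin displaces the corepressors and brings in coactivators. In pluripotent cells TCF7L1 is known mostly as a repressor, LEF1 and TCF7 mostly as activators once β-catenin is bound, and TCF7L2 can act either way. Counts per gene do not separate isoforms, so forms of LEF1, TCF7 or TCF7L2 that lack the β-catenin-binding domain are counted with the full-length forms.

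The libraries held 15877396 to 18918609 counts. PCGF6 itself had 268 and 300 counts in WT, 99 and 103 in KO1, and 187 and 159 in KO2, a lower level in both clones. Reads outside the deleted stretch of the first exon are counted too, so these counts do not check the edit itself. Levels are given as CPM (gene counts put on 1 library size by TMM scaling) and, where genes are compared with each other, as FPKM (CPM per kilobase of the exon length deposited for the gene). Differences were tested with edgeR (quasi-likelihood), with p adjusted by Benjamini-Hochberg over 17672 genes, and a gene is said to be called where the adjusted p was under 0.05 and log2 fold changes exceeded 0.6 in either direction. The labels do not say that the 2 libraries of a group came from separate cultures, so the spread between them may be technical. For each clone against WT and between the clones, p-values measure this spread. In PCGF6-KO against WT the 4 knockout libraries form 1 group, so the spread there also holds the difference between the clones. These 4 libraries come from 2 clones and are not 4 independent knockouts. PCGF6 itself was called between the clones, higher in KO2 than in KO1 (log2 difference 0.90, SE 0.15, adjusted p = 5.44e-05, edgeR).

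In PCGF6-KO cells the TCF/LEF family shifted from TCF7L1 toward LEF1 and TCF7, and the TLE family from TLE1 and TLE2 toward TLE3 and TLE4. Of the 9 genes, 7 were called in PCGF6-KO against WT. LEF1, TCF7, TLE3 and TLE4 were higher, and TCF7L1, TLE1 and TLE2 were lower, whereas TCF7L2 and CTNNB1 were not called. Over all genes tested, 23.6% were called, 14.9% higher and 8.70% lower. The 9 genes had a median log2 fold change of −0.09, against 0.0037 over all genes tested, since increases and decreases offset each other. CPM in the 4 knockout libraries and the 2 WT libraries did not overlap for 8 of the 9 genes, CTNNB1 being the exception, where 57.1% of all genes tested did not overlap. Each clone against WT also gave 7 calls in the same directions, with 24.8% of all genes called for KO1 (16.0% higher, 8.80% lower) and 29.4% for KO2 (16.9% higher, 12.5% lower). Both clones and the pooled comparison share the same 2 WT libraries.

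**Figure D1:**
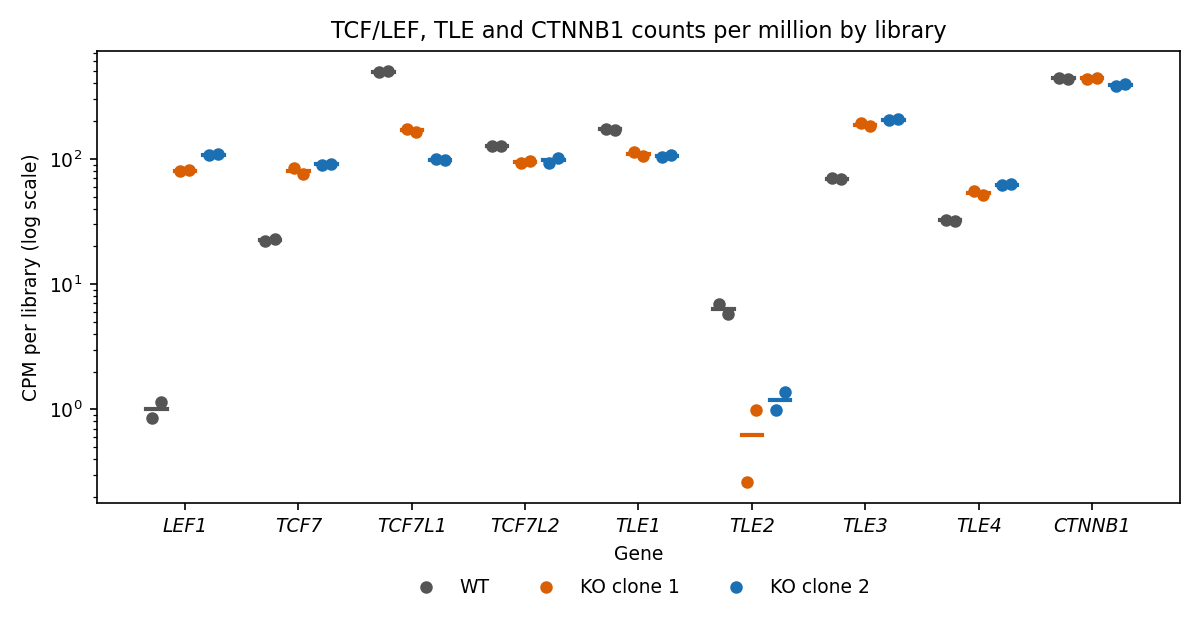
CPM of each gene in each library, on a log axis, with WT in grey, clone 1 in orange and clone 2 in blue; points are the 2 libraries of a group and short bars their mean. LEF1 lies near 1 CPM in WT and at 80.0 to 108 CPM in the clones, TCF7L1 falls from WT to KO1 to KO2, and the CTNNB1 points of WT and KO1 overlap.

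The sequence just upstream of TCF7L1 is shown because this gene had the largest fall among the TCF/LEF genes and the called difference between the clones. The window holds the 250 bases before the start of the MANE Select transcript (the reference transcript chosen for the gene), written 5′ to 3′ on the strand of the gene, from GRCh38 with GENCODE release 44. It is chr2:85133142-85133391 on the forward strand, with 0 bases in annotated exons.
TCF7L1: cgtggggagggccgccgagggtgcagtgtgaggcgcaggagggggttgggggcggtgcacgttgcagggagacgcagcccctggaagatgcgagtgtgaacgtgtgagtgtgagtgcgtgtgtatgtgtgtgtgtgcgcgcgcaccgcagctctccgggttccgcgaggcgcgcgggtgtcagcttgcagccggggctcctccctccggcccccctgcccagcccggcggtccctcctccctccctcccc

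The TCF7L1 window is rich in G and C, with 72.0% GC and 24 CpG dinucleotides. This window and those of 7 more of the genes, 8 in all, were searched on both strands for 3 short motifs, chosen after the sequences were seen: CTTTGA, the core bound by TCF/LEF proteins, CACGTG, the E-box of MYC and MAX, and GCGGGAA, an E2F site. Windows of the same length at 19061 genes held CTTTGA in 9.08% of cases, CACGTG in 7.87% and GCGGGAA in 7.51%. None of the 3 motifs overlaps another in letters at the matches found. The TCF7L1 window held none of them, so no letters are capitalised above. Among the 8 windows, only those of TLE3 and TLE4 held a match, 1 each. In the 30 bases around each match below, capitals mark the motif.
TLE3, CACGTG, 68 bases upstream of the MANE Select start, chr15:70097968-70097997 on the reverse strand: gtcccgcagcccCACGTGggggccccgcgc
TLE4, CTTTGA read on the other strand, 19 bases upstream of the MANE Select start, chr9:79571934-79571963 on the forward strand: tgctaaatttggTCAAAGaagtcacctaca
Both matches lie upstream of the MANE Select start but inside the annotated gene, since other transcripts start earlier: 250 bases of the TLE3 window and 192 of the TLE4 window are in annotated exons. A match is a string of letters, and binding there was not measured by these libraries.

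LEF1, the TCF/LEF member known as both an effector and a target of WNT signaling, is on the reverse strand of chromosome 4 (GRCh38, bases 108047545 to 108168956). It had 14 and 19 counts in WT, 1529 and 1479 in KO1, and 1936 and 1739 in KO2. In CPM this was 0.860 and 1.14 in WT, 80.0 and 81.4 in KO1, and 107 and 108 in KO2. The gene went from barely detected to well expressed in every knockout library, and the groups did not overlap. Its log2 fold change in PCGF6-KO was 6.54 (SE 0.24, adjusted p = 3.07e-07, edgeR). KO2 stood 0.42 above KO1 on the log2 scale (SE 0.07, adjusted p = 9.85e-05, edgeR), a difference under the fold threshold. LEF1-AS1, an antisense lncRNA that shares 279 exon bases (5.2% of the LEF1 exons), had 0 counts in both WT libraries and 13 to 16 counts in each knockout library, and without a stated strand setting its reads and those of LEF1 in the shared stretch cannot be told apart.

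TCF7, which encodes the factor also known as TCF1, lies on chromosome 5 from 134114681 to 134151865 on the forward strand. Its level was 21.99 and 23.1 CPM in WT, 84.6 and 75.9 CPM in KO1, and 89.7 and 90.6 CPM in KO2. All 4 knockout libraries were above both WT libraries, and the clones lay close to each other. The log2 fold change was 1.92 (SE 0.10, adjusted p = 1.5e-06, edgeR), and the clones differed by 0.17 (SE 0.07, adjusted p = 0.118), which was not called. The exons of TCF7 share 210 bases (2.08%) with SKP1, a gene on the opposite strand.

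TCF7L1, the former TCF3, is the main repressive TCF of pluripotent cells and lies on chromosome 2 from 85133392 to 85310387 on the forward strand. It had 8072 and 8343 counts in WT, 3337 and 2975 in KO1, and 1804 and 1572 in KO2. Its CPM was 496 and 499.96 in WT, 175 and 164 in KO1, and 99.5 and 98.0 in KO2. The levels formed 3 separate steps, with WT highest, KO1 between and KO2 lowest. TCF7L1 fell by 1.89 on the log2 scale in PCGF6-KO (SE 0.22, adjusted p = 0.000198, edgeR). Against WT it fell by 1.56 in KO1 (SE 0.06, adjusted p = 8.03e-18) and by 2.33 in KO2 (SE 0.06, adjusted p = 2.73e-21). It was the one gene of the 9 called between the clones, lower in KO2 with a log2 difference of −0.78 (SE 0.06, adjusted p = 4.42e-10, edgeR), where 7.87% of all genes tested were called, 3.73% higher and 4.14% lower.

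TCF7L2, the TCF4 of the WNT literature and able to activate or repress, lies on chromosome 10 from 112950247 to 113167678 on the forward strand. Both WT libraries had 126 CPM, while the clones had 92.9 and 95.8 CPM (KO1) and 92.5 and 102 CPM (KO2). The knockout libraries were below WT without overlap. The log2 fold change of −0.40 (SE 0.06) had an adjusted p of 0.00136 by edgeR's test and stayed under the fold threshold, so it was not called. The clones were level with each other (log2 difference 0.04, SE 0.07, adjusted p = 0.714). Its exons share 300 bases (4.45%) with an opposite-strand lncRNA.

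**Figure D2:**
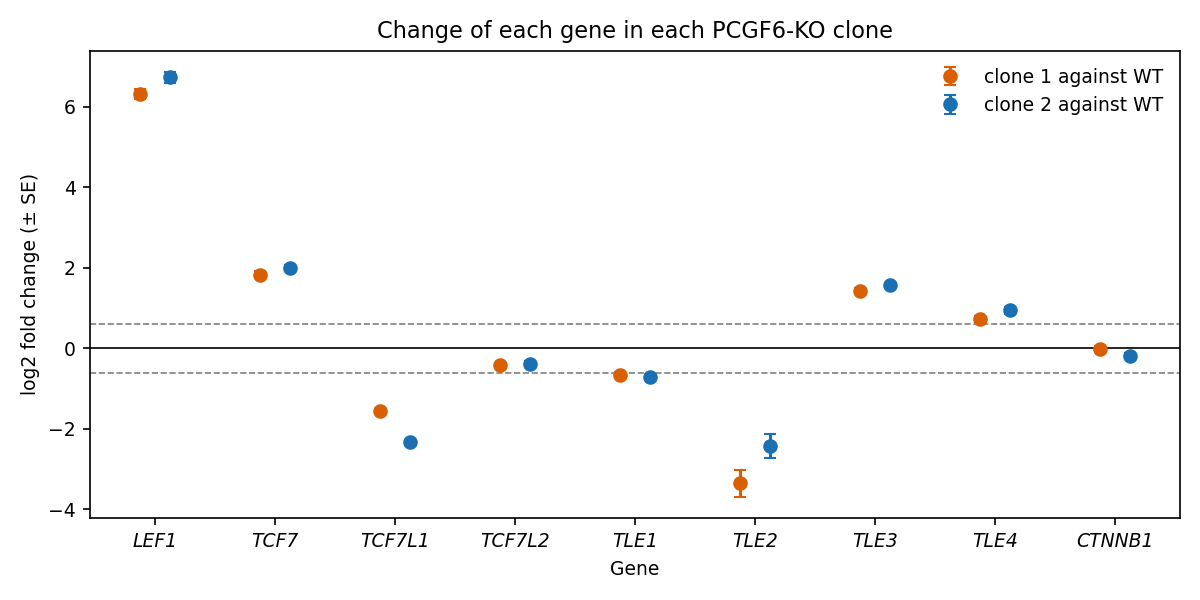
Log2 fold change of each gene in KO1 (orange) and KO2 (blue) against WT, with bars of 1 SE and dashed lines at the fold threshold of 0.6 on either side of 0. The clones lie together for most genes, and TCF7L1 shows a called gap between them, from −1.56 in KO1 to −2.33 in KO2.

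Set on the FPKM scale, the order of the TCF/LEF genes changed. In WT, TCF7L1 stood at 113 ± 0.677 FPKM (SD, n = 2), followed by TCF7L2 at 18.8 ± 0.00067, TCF7 at 2.24 ± 0.076 and LEF1 at 0.186 ± 0.037, and every neighbour in this order was separated by more than the spread. In KO1 the order was TCF7L1 (38.3 ± 1.74 FPKM, n = 2), LEF1 (15.0 ± 0.183), TCF7L2 (14.0 ± 0.303) and TCF7 (7.97 ± 0.616). In KO2 it was TCF7L1 (22.4 ± 0.243 FPKM, n = 2), LEF1 (20.1 ± 0.212), TCF7L2 (14.5 ± 1.03) and TCF7 (8.96 ± 0.066). On this scale LEF1 was last of the 4 in WT and came next after TCF7L1 in both clones. Across all 9 genes, TCF7L1 and CTNNB1 (36.8 ± 0.359 FPKM) did not differ beyond their spread in KO1, nor did TLE3 (14.9 ± 0.619) and its neighbours LEF1 and TCF7L2. With the length of the MANE Select transcript they did, at 56.6 ± 2.58 CPM per kilobase for TCF7L1 and 120 ± 1.17 for CTNNB1, and at 32.8 ± 1.36 for TLE3, 22.6 ± 0.275 for LEF1 and 23.2 ± 0.501 for TCF7L2 (SD, n = 2). The family sum was 134 ± 0.790 FPKM in WT, 75.3 ± 1.87 in KO1 and 65.9 ± 1.07 in KO2, so the gain of LEF1 and TCF7 was smaller than the loss of TCF7L1 and TCF7L2. In CPM the sum was 645 and 651 in WT and 388 to 432 in the knockout libraries, lower as well.

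As a share of the summed TCF/LEF FPKM, TCF7L1 made up 84.2 ± 0.0093% in WT (SD, n = 2), 50.8 ± 1.05% in KO1 and 34.0 ± 0.921% in KO2. LEF1 made up 0.139 ± 0.027% in WT, 20.0 ± 0.740% in KO1 and 30.5 ± 0.172% in KO2. TCF7 rose from 1.67 ± 0.047% to 10.6 ± 0.555% and 13.6 ± 0.1201%, and TCF7L2 from 14.0 ± 0.083% to 18.6 ± 0.865% and 21.9 ± 1.21%. The TCF7L2 share was therefore larger in the clones although its own level was lower, because the family total was smaller. These shares rest on the length used for each gene. With the length of the MANE Select transcript, the mean shares in KO1 were 19.2% for TCF7, 18.3% for TCF7L2 and 17.8% for LEF1, the lowest of the 4. The KO1 libraries of LEF1 (17.3% and 18.3%) and TCF7L2 (17.6% and 18.9%) overlapped, so the order of these genes there cannot be told. In KO2 LEF1 was next after TCF7L1 with this length. With counts not divided by length, TCF7L2 (22.3%) was above LEF1 (19.0%) in KO1, and LEF1 (27.3%) passed TCF7L1 (25.1%) in KO2. The share of LEF1 was larger in each clone than in WT on all 3 scales. TCF7L1 had the largest share in WT and KO1 on all 3 scales.

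The balance of activating to repressing TCFs was described by the FPKM of LEF1 plus TCF7 over that of TCF7L1. It was 0.0209 and 0.0221 in WT, 0.590 and 0.613 in KO1, and 1.28 and 1.32 in KO2. WT therefore had far more TCF7L1 than LEF1 and TCF7 combined, by 47.9 and 45.2 times in the 2 libraries, a figure that was 23.97 and 22.8 with the MANE Select length and 21.7 and 20.7 with counts not divided by length. KO1 still had more TCF7L1, and KO2 had more LEF1 and TCF7, on all 3 scales. With TCF7L2 counted on the repressing side as well, the ratio was 0.0179 and 0.0190 in WT, 0.437 and 0.443 in KO1, and 0.795 and 0.782 in KO2. On that reading neither clone passed 1 in FPKM, whereas KO2 was at about 1 with the MANE Select length (1.02 and 0.999) and with counts not divided by length (1.02 and 0.993). Within the activating side, LEF1 over TCF7 moved from 0.0734 and 0.0926 in WT to 1.77 and 2.01 in KO1 and 2.23 and 2.25 in KO2. It was lower on the other scales, at 0.869 and 0.986 in KO1 and 1.10 in both libraries of KO2 with the MANE Select length, and at 0.945 and 1.07 in KO1 and 1.19 and 1.20 in KO2 with undivided counts, so which of LEF1 and TCF7 was higher in KO1 cannot be told. The ratios are of RNA levels per gene and are given without a test.

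**Figure D3:**
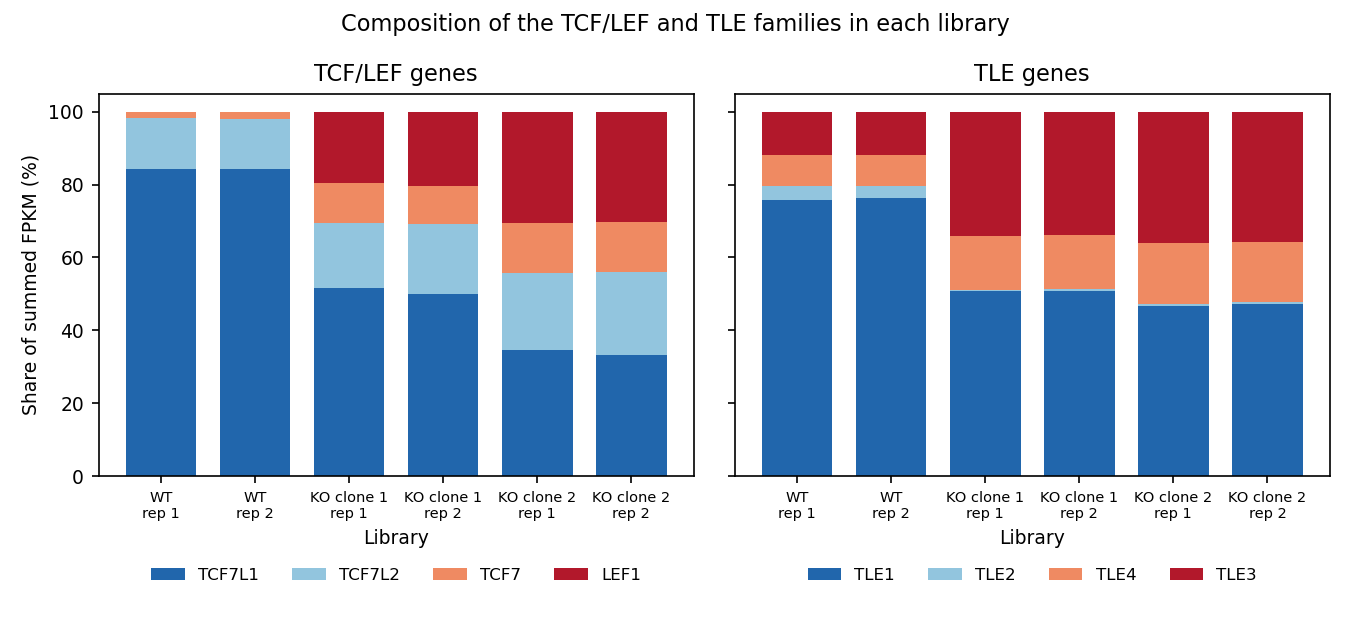
Share of the summed FPKM of the TCF/LEF genes (left) and of the TLE genes (right) taken by each gene in each library, in percent, as stacked bars. TCF7L1 fills most of the WT bars and shrinks to 50.8% and 34.0% in the clones while LEF1 grows, and TLE3 grows at the expense of TLE1.

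TLE1, a full-length Groucho corepressor on chromosome 9 from 81583683 to 81689547 on the reverse strand, had 173 and 171 CPM in WT, 113 and 106 CPM in KO1, and 103 and 107 CPM in KO2. The knockout libraries were all below WT, and the clones overlapped. The log2 fold change was −0.68 (SE 0.06, adjusted p = 3.67e-05, edgeR), a small step past the threshold.

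TLE2, a further full-length member on chromosome 19 from 2997639 to 3047635 on the reverse strand, was the least expressed of the 4 TLE genes. It had 113 and 97 counts in WT, 5 and 18 in KO1, and 18 and 22 in KO2. All knockout counts were far below WT, and the ratio between the libraries of a group was largest in KO1. The log2 fold change was −2.83 (SE 0.40, adjusted p = 0.000609, edgeR). The difference of KO2 from KO1 was 0.92 (SE 0.44, adjusted p = 0.161) with all libraries, 2.13 (adjusted p = 0.00815) without replicate 2 of KO1 and 0.24 (adjusted p = 0.775) without its replicate 1, the library with 5 counts. Against WT, KO1 gave −3.35 with both of its libraries, −2.68 without replicate 1 and −4.57 without replicate 2.

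TLE3, a full-length Groucho corepressor on chromosome 15 from 70047790 to 70098176 on the reverse strand, rose in every knockout library. It had 69.9 and 68.7 CPM in WT, 193 and 182 CPM in KO1, and 203 and 208 CPM in KO2. The groups of WT and knockout libraries stood clearly apart, with a log2 fold change of 1.51 (SE 0.07, adjusted p = 1.34e-06, edgeR) and no call between the clones (0.13, SE 0.06, adjusted p = 0.14).

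TLE4 lies on chromosome 9 from 79571773 to 79726882 on the forward strand and encodes a corepressor of the same build as TLE1. Its level was 32.6 and 32.0 CPM in WT, 55.3 and 51.2 CPM in KO1, and 61.7 and 62.6 CPM in KO2. It rose in each clone, by 0.84 overall on the log2 scale (SE 0.10, adjusted p = 0.000231, edgeR). KO2 was above KO1 by 0.22 (SE 0.08, adjusted p = 0.0461), which is under the fold threshold.

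Per length, TLE1 led the TLE genes in each group, with 35.0 ± 0.249 FPKM in WT (SD, n = 2), 22.3 ± 0.952 in KO1 and 21.3 ± 0.621 in KO2. TLE3 came next, at 5.49 ± 0.065, 14.9 ± 0.619 and 16.3 ± 0.270 FPKM, followed by TLE4 at 3.95 ± 0.053, 6.50 ± 0.356 and 7.59 ± 0.074 FPKM and by TLE2 at 1.58 ± 0.197, 0.155 ± 0.128 and 0.293 ± 0.066 FPKM. The share of TLE1 in the summed TLE FPKM went from 76.1 ± 0.390% in WT to 50.8 ± 0.086% in KO1 and 46.9 ± 0.301% in KO2. That of TLE3 went from 11.9 ± 0.0057% to 34.0 ± 0.017% and 35.8 ± 0.218%. Which gene led in the clones depended on the length: with the MANE Select transcript, TLE3 had 46.6% and 48.2% and TLE1 37.6% and 34.1%. The direction of the family total did as well. The sum of the 4 TLE genes was 46.1 ± 0.564 FPKM in WT, 43.8 ± 1.80 in KO1 and 45.5 ± 1.03 in KO2. By library, KO1 (45.1 and 42.5) lay slightly below WT (46.5 and 45.7), and KO2 (44.8 and 46.2) overlapped WT. In CPM, however, the sum was 278 and 282 in WT and 340 to 379 in the knockout libraries. With the MANE Select length it was also higher in the clones (68.2 to 75.4 against 62.0 and 63.1). Against the falling TCF/LEF sum, the ratio of summed TLE to summed TCF/LEF FPKM went from 0.348 and 0.339 in WT to 0.588 and 0.574 in KO1 and 0.688 and 0.694 in KO2.

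The other Groucho genes are shorter or more divergent. TLE5, listed by its older symbol AES, lacks the WD40 domain that full-length TLE proteins use to bind partners and can oppose them. It had 1386 and 1350 counts in WT, 436 and 396 in KO1, and 510 and 410 in KO2. It fell by 1.76 on the log2 scale (SE 0.10, adjusted p = 3.24e-06, edgeR), without overlap between WT and knockout libraries. TLE6, known from the maternal complex of oocytes, had 12 counts in each WT library and 0 to 3 in the knockout libraries and was also called lower. TLE7 had at most 4 counts in any library and was not tested.

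CTNNB1, the gene of β-catenin on chromosome 3 from 41194741 to 41260096 on the forward strand, had 443 and 437 CPM in WT, 436 and 442 CPM in KO1, and 383 and 395 CPM in KO2. KO1 overlapped WT, and KO2 was slightly below both. The log2 fold change in PCGF6-KO was −0.09 (SE 0.07, adjusted p = 0.378, edgeR). KO2 alone gave −0.18 against WT (SE 0.05, adjusted p = 0.00647), under the fold threshold, and KO1 gave −0.0041 (SE 0.05, adjusted p = 0.959). β-catenin is controlled mostly by degradation of the protein, which RNA counts do not measure. With the TCF/LEF sum lower, CTNNB1 over the summed TCF/LEF FPKM was 0.278 and 0.272 in WT, 0.477 and 0.501 in KO1, and 0.493 and 0.497 in KO2.

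Among the genes that act around β-catenin and the TCFs, 7 of the 39 tested on 4 lists were called (17.9%), near the 23.6% of all genes tested. Of 11 coactivator genes, 1 was higher, PYGO1, an adaptor that joins BCL9 to histone H3, with a log2 fold change of 2.59 from 25 and 38 counts in WT, and 10 were not called, among them BCL9, BCL9L, CREBBP and EP300. Of 11 inhibitors and corepressors, SOX17, a factor of endoderm that can bind β-catenin, was higher, from 0 counts in both WT libraries, at least 13.2-fold against a floor of 3 counts per library. CTNNBIP1, which blocks the binding of β-catenin to TCFs, was lower (log2 fold change −0.78), as was NLK, a kinase that phosphorylates TCF/LEF proteins (−0.70, with −0.59 in KO1, under the fold threshold). The histone deacetylase genes HDAC1 and HDAC2, partners of TLE proteins, were not called, at 0.24 and 0.02 on the log2 scale. Of the 10 genes of the destruction complex, which marks β-catenin for degradation, 1 was called, AXIN2, at 2.64 and higher. BTRC of this list was not called in PCGF6-KO (−0.46) or KO1 (−0.28) but was called lower in KO2 against WT (−0.67, adjusted p = 1.8e-07, edgeR). Of 7 catenin and cadherin genes, CDH2 (N-cadherin) was higher by 2.55 and CTNNA2, an α-catenin of neurons, was lower (−2.44). The medians of these lists lay between −0.06 and 0.11 on the log2 scale, against 0.0037 over all genes tested.

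All 11 of 11 canonical WNT target genes were called higher in PCGF6-KO and in each clone, where 14.9% of all genes tested were called higher in PCGF6-KO, and their median log2 fold change was 4.01. SP5, a direct target that itself represses other targets, had 8 and 2 counts in WT and 255 ± 11.6 CPM (SD, n = 4) in the knockout libraries, or 9.68 on the log2 scale. DKK1, a secreted inhibitor of WNT receptors, had 2 counts in each WT library and was at least 171-fold higher against a floor of 3 counts, and LGR5, an R-spondin receptor, was at least 18.4-fold higher. AXIN2 is on this list too, going from 24.4 ± 1.58 CPM (n = 2) to 152 ± 9.07 CPM (n = 4). The list was put together with earlier results of these data known.

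**Figure D4:**
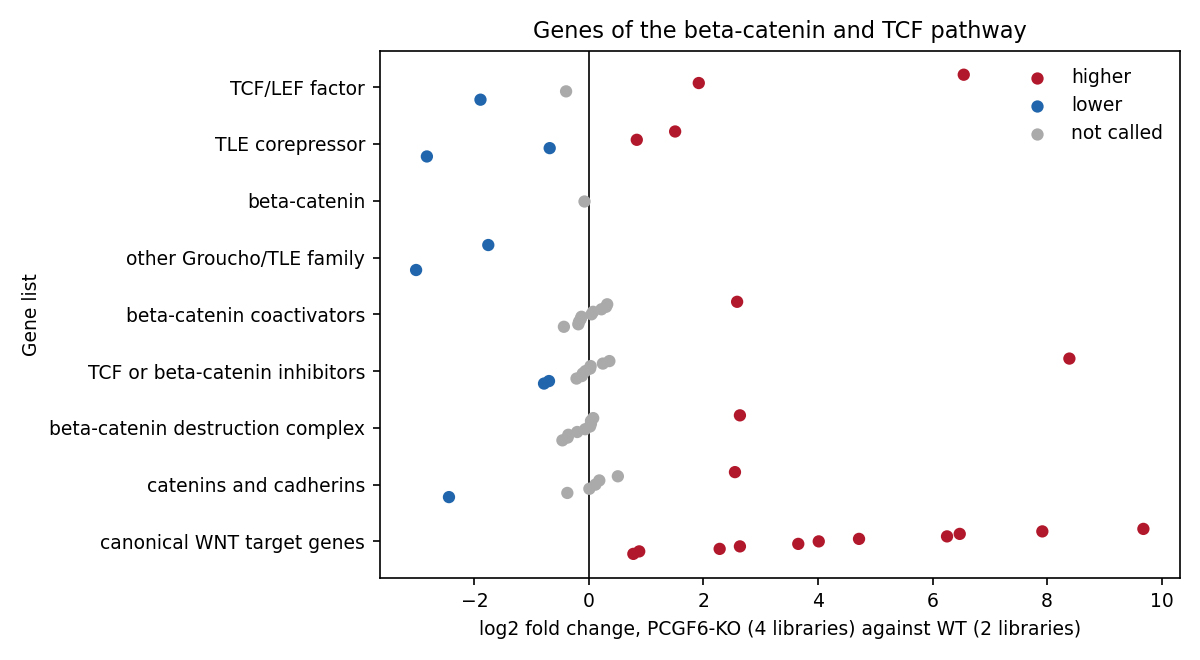
Log2 fold change in PCGF6-KO (4 libraries) against WT (2 libraries) for each tested gene of the lists, 1 point per gene, with called genes in red (higher) or blue (lower) and others in grey. The TCF/LEF and TLE genes spread to both sides of 0, the coactivator, inhibitor and destruction complex genes gather near 0, and the WNT target genes lie at 0.78 to 9.68; values of genes with few or no WT counts, such as SOX17, are fitted and depend on the prior count.

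The streak, mesoderm and endoderm markers tested, and most of those for trophoblast and amnion, were higher in PCGF6-KO. Neuroectoderm markers went both ways, and most pluripotent markers were not called. The counts of calls stand against 14.9% higher and 8.70% lower among all genes tested. The 7 pluripotent markers summed to 6855 to 7154 CPM in WT, 5960 to 6036 CPM in KO1 and 5793 to 5942 CPM in KO2, with none at 0 in any group. Of these, SOX2 was the one called in PCGF6-KO (log2 fold change −0.69). Against WT it was called lower in KO2 (−1.04, adjusted p = 4.72e-14, edgeR). In KO1 it was lower as well (−0.41, adjusted p = 1.47e-06, edgeR) but under the fold threshold. Between the clones SOX2 was called lower in KO2 (−0.63, adjusted p = 1.33e-08, edgeR). Primitive streak and mesoderm markers were called higher for 6 of the 6 tested of 7, and summed to 6.47 to 6.51 CPM in WT, 654 to 663 in KO1 and 847 to 848 in KO2, with HAND1 and MESP1 at 0 in WT. All 4 definitive endoderm markers were higher, with sums of 1.498 to 1.84, 21.9 to 21.97 and 41.3 to 45.5 CPM and SOX17 at 0 in WT. Trophoblast and amnion markers were higher for 3 of the 4 tested of 5, led by CDX2, with sums of 3.96 to 5.40, 65.7 to 73.4 and 115 to 126 CPM. GCM1 of this list had few counts in each library and was not tested. KRT7, the other marker tested, was not called in PCGF6-KO (log2 fold change −0.50) and was lower in KO2 against WT (−1.07, adjusted p = 0.00261, edgeR) and against KO1 (−0.98, adjusted p = 0.0143), opposite to the sums. Neuroectoderm markers summed to 72.4 to 73.0, 32.7 to 35.9 and 32.3 to 34.2 CPM, of which OTX2 alone made up 72.1 CPM in WT and was lower in PCGF6-KO. ZIC1 was higher, PAX6 stood at 1.38 on the log2 scale (adjusted p = 0.0714, edgeR, not called) and was called higher in KO1 (1.51, adjusted p = 0.026), and SOX1 had 0 or 1 count. The sums of the mesoderm, endoderm, and trophoblast and amnion lists had the same order of groups as LEF1 and the reverse order of TCF7L1. WT was at one end and KO2 at the other. Single markers did not all follow: of the 6 streak and mesoderm markers tested, 3 were called higher in KO2 than in KO1 (3.73% of all genes tested were). The other 3 were not called, among them EOMES, with 138 CPM in KO1 and 95.9 in KO2. CDX2 alone made up 38.1 CPM of the trophoblast and amnion sum in KO1 and 77.3 CPM in KO2. In bulk RNA, a change in the number of cells of a type and a change in RNA per cell cannot be told apart, and the part that other cell types had in the LEF1, TCF7 and TLE values was not tested.

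The profiles most like those of LEF1 and TCF7L1 over the 6 libraries were looked up among all genes with enough counts. Likeness was measured as the root mean square difference of log2(CPM + 1), centred on each gene's mean, over 13866 genes. Closest to LEF1 were LINC00458 (0.0851), EVX1 (0.117), ACTC1 (0.134), AHNAK (0.167) and ABHD12B (0.175). The 1 added to CPM narrows differences at low levels, such as that of LEF1 in WT. This list therefore depends on it, and likeness here is not likeness of fold changes. LINC00458, a long noncoding RNA, went from 6.20 and 6.47 CPM in WT to 322 and 335 in KO1 and 386 and 390 in KO2, and EVX1, a homeobox gene of the primitive streak, from 0 in WT to 37.3 and 35.3 in KO1 and 58.6 and 55.5 in KO2. Closest to TCF7L1 were PSMB8 (0.0898), TRIM22 (0.0906), FAM57B (0.0909), CACNG7 (0.101) and RIMS4 (0.106). The 1 added to CPM narrows the falls of low-level genes here too, so this list also depends on it. PSMB8 went from 9.21 and 9.23 CPM in WT to 0.938 and 0.997 in KO2. TRIM22 went from 18.4 and 16.7 CPM in WT to 2.21 and 2.49 in KO2. CACNG7, a calcium channel subunit, had 129 and 139 CPM in WT, 43.1 and 41.5 in KO1, and 22.9 and 21.3 in KO2. Its likeness to TCF7L1 follows from how it was picked.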

How the data were processed

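RNA-seq libraries of WT (2), KO1 (2) and KO2 (2) were used, and ChIP-seq was not analysed here. The authors trimmed reads with Trim Galore (0.6.2), used HISAT2 (2.1.0) to align them to GRCh38, counted reads of each gene with featureCounts, and deposited raw counts with gene lengths. The annotation release, strand setting and handling of multi-mapped reads are not given in the sources used here. Samples were grouped by their labels. The set of 9 genes, the lists and the rule for named genes were chosen with earlier results of these data known. The rule named all 9 genes, PCGF6, up to 3 called genes per list and direction that went the same way in each clone, list genes with at most 3 counts in every library, and the 5 genes most like LEF1 and TCF7L1. BCL9, BCL9L, CREBBP, EP300, HDAC1, HDAC2, NLK, BTRC, SOX2, MESP1, SKP1, TLE7, KRT7, PAX6, TLE1P1 and LEF1-AS1 were named outside it, after their values were seen.

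Low counts were removed with filterByExpr, libraries were scaled by TMM, and edgeR's (4.0.16, R 4.3.3) quasi-likelihood test compared the 4 PCGF6-KO libraries with WT. A fit with 3 groups compared each clone with WT and the clones with each other. SE was the absolute log2 fold change over the square root of F. Counts of a floor (3) cover counting error only. Alternatives were DESeq2 (1.42.0), other scalings, filters and thresholds, other groupings, the replicate block, other lengths and leaving out each library. The steps were tested on simulated data. Sequences were read with pysam (0.24.0). The upstream window of 1 of the 9 genes is not reported here.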

Additional observations from a re-analysis of the deposited data

Results flagged for a closer look

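TCF7L1 differed between the knockout clones. The difference of KO2 minus KO1 was −0.78 on the log2 scale (SE 0.06, adjusted p = 4.42e-10, edgeR), with 175 and 164 CPM in KO1 and 99.5 and 98.0 CPM in KO2. Leaving out each library in turn gave values from −0.82 to −0.73.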

How the results depend on the processing

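The number of the 9 genes called in PCGF6-KO, KO1 and KO2 against WT stayed at 7 under RLE and upper-quartile scaling, DESeq2, no filter and each library left out in turn. It was 6 of the 8 tested with at least 10 counts in every library, where TLE2 was not tested, and 8 or 9 with adjusted p alone. Between the clones, 1 gene was called, against 4 with adjusted p alone and 1 to 2 when a library was left out, TLE2 being added without KO1 replicate 2 (log2 difference 2.13). The CTNNB1 log2 fold change of KO1, near 0, turned to 0.018 under the filter of 10 counts, 0.0012 with only the groups compared, and ranged from −0.011 to 0.0069 when a library was left out, above 0 without replicate 1 of WT or of KO1. The TCF7L2 difference between clones ranged from −0.030 to 0.12 when a library was left out, below 0 without replicate 2 of KO2. Neither gene was called in these settings. Under counts not divided by length, LEF1 had 19.0% of the TCF/LEF total in KO1 and 27.3% in KO2, and TCF7L1 76.9%, 39.8% and 25.1% in WT, KO1 and KO2. Under the MANE Select length, added after seeing the data, LEF1 had 17.8% and 26.3%, and TCF7L1 81.4%, 44.7% and 28.9%. LEF1 plus TCF7 over TCF7L1, with other scales also added then, was 0.0473, 0.952 and 2.003 in WT, KO1 and KO2 with undivided counts and 0.0428, 0.8293 and 1.74 with the MANE Select length. Over all genes, calls rose from 4167 to 6556 (PCGF6-KO), 4379 to 8002 (KO1), 5197 to 8904 (KO2) and 1390 to 3442 (between clones) with adjusted p alone, and fell to 810 between clones with DESeq2. With no filter the median log2 fold change of all genes in PCGF6-KO moved to 0.10.

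With the replicate number as a block, 7 of the 9 genes were called in each comparison with WT and 1 between the clones. Calls over all genes in PCGF6-KO were 3876 with the block. The labels give same-numbered libraries only a number in common. Their deviations correlated at 0.07 (WT and KO1), 0.08 (WT and KO2) and 0.18 (KO1 and KO2) over 14850 genes. These correlations cannot show whether such libraries shared a batch.

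With 14 to 19 counts in WT, the LEF1 log2 fold change in PCGF6-KO rests on few WT reads, and it ranged from 6.36 to 6.76 over all alternatives. Gene counts cannot separate isoforms or alternative starts, 2 clones do not describe all knockouts, and protein was not measured here.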

Other observations

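TLE1P1, annotated as a pseudogene of TLE1, had 9 and 10 counts in WT, 16 and 14 in KO1, and 21 and 17 in KO2, while TLE1 itself was lower in both clones. Its log2 fold change in PCGF6-KO was 0.72 (adjusted p = 0.147, edgeR), which was not called. It was looked at after the TLE1 values were seen, and reads could be split between it and TLE1 by the counting.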
